A study of Mus musculus with 6 samples.

Results

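The 7 metabotropic glutamate receptor genes described here are Grm5, of receptor group I, Grm2 and Grm3, of group II, and Grm4, Grm6, Grm7 and Grm8, of group III. They were found by name, as the rows of the gene count table whose Ensembl identifier carries 1 of these 7 symbols in the mouse GENCODE M21 annotation, out of 55401 gene rows. RNA was taken from the cerebral cortex of C57BL/6 mouse embryos at embryonic day 18, from crosses between parents heterozygous for Csmd3. The 3 wild-type embryonic samples (WT) carry no disrupted copy by their genotype label, and the 3 knockout samples (Csmd3-/-) have both copies of Csmd3 disrupted. No drug or other agent was given to either group. Neither the disrupted part of Csmd3 nor whether a library holds 1 embryo or several is given in the labels used here, so p-values measure the spread between these libraries, which may be partly technical.

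Metabotropic glutamate receptors are membrane proteins of G protein-coupled receptor class C that bind the excitatory transmitter glutamate in a large extracellular domain. Group I receptors act through Gq proteins and phospholipase C, mostly on the postsynaptic side. Group II and III receptors act through Gi/o proteins, which lower cyclic AMP, and many of them sit on nerve terminals, where they reduce transmitter release. In the cortex Grm2 and Grm7 are known from neurons, Grm3 from neurons and astrocytes, and Grm5 from neurons and young astrocytes, whereas Grm6 is known as the receptor of retinal ON bipolar cells.

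Deposited totals ran from 54244288 to 68269607 estimated counts per library. Low values piled up at 4, with 1298 genes at 4 against 492 at 3 and 318 at 5 in wild-type library 1, so a deposited count appears to hold about 4 counts for each sequenced fragment. The targeted gene Csmd3 was at 15.0 ± 1.72 CPM (counts scaled with TMM to a common library size) in wild type against 9.98 ± 0.294 in knockout (SD, n = 3), lower but present; this call needed wild-type library 1 and every knockout library (highest adjusted p without 1 of them = 0.101). Sex is not labelled, and Xist and Y-linked transcripts stood side by side in most libraries. Wild-type library 1 had 10817 Xist counts and 8976 counts over 4 Y-linked genes, whereas wild-type library 3 had 115703 and 1. Knockout libraries 2 and 3 stood apart by transcripts of choroid plexus, the secretory tissue of the brain ventricles, with 63.7 and 516 CPM summed over 8 markers against 34.0 CPM in knockout library 1 and 6.37 to 8.29 CPM in wild type.

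The genes differ widely in size. Grm7 (ENSMUSG00000056755.13) spans 921.6 kb of chromosome 6, from 110645581 to 111567230 on the plus strand of mm10, and Grm8 (ENSMUSG00000024211.15) spans 860.1 kb of the same chromosome, from 27275119 to 28135178 on the minus strand. Grm5 (ENSMUSG00000049583.15) lies on chromosome 7 from 87584168 to 88134907, plus strand. The group II genes are Grm2 (ENSMUSG00000023192.12), only 13 kb long, on chromosome 9 from 106643095 to 106656082, minus strand, and Grm3 (ENSMUSG00000003974.6), on chromosome 5 from 9485541 to 9725170, minus strand. Grm4 (ENSMUSG00000063239.17) lies on chromosome 17 from 27422387 to 27521403, minus strand, and Grm6 (ENSMUSG00000000617.14) on chromosome 11 from 50850685 to 50866208, plus strand. An annotated antisense gene shares 9.60% of the exon bases of Grm2, with 0 to 8 counts per library of its own, and another shares 2.21% of those of Grm7, with 4 to 23 counts. No source used here says whether counting used strand, and reads from these shared bases cannot be assigned to either partner.

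RefSeq promoter windows on GRCm38.p6, the same assembly as mm10, were found for 5 of the 7 genes, and Grm4 and Grm5 had none in the table used. The windows of the called genes Grm2, Grm3 and Grm7 are shown because these 3 genes moved together between the genotypes. Each is the 250 bases before the RefSeq start, 5′ to 3′ on the strand of the gene, with matches to the GC box GGGCGG on either strand in capitals.

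Grm2, chr9:106656110-106656359, minus strand: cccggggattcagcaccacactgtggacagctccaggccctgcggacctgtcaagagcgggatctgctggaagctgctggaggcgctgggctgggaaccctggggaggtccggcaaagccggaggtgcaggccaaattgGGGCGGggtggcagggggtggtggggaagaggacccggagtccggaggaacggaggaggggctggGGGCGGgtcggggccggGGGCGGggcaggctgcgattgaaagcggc

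Grm3, chr5:9725353-9725602, minus strand: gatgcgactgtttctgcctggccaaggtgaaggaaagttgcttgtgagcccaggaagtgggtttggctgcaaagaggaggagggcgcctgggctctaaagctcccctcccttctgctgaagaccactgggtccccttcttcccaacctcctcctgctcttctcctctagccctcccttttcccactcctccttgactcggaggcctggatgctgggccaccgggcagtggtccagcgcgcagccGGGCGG

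Grm7, chr6:110645348-110645597, plus strand: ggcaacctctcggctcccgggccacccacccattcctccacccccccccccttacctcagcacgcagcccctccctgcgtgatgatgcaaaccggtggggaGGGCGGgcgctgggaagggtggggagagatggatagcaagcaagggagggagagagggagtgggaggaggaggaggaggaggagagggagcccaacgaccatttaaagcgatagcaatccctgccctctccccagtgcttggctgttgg

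The 3 windows are GC-rich, at 71.2% for Grm2, 62.4% for Grm3 and 65.2% for Grm7, against a median of 52.4% over 32851 windows of the same length. Grm2 holds 3 GC boxes and Grm3 and Grm7 hold 1 each, and 32.7% of all windows hold at least 1. None of these 3 windows holds the TATA box TATAAA (12.4% of all windows) or the cyclic AMP response element TGACGTCA (1.55%) on either strand. The CCAAT box, present in 33.8% of all windows, occurs 1 time in Grm2 and 0 times in Grm3 and Grm7. For Grm3 the RefSeq start lies 182 bases from the GENCODE start, against 27 for Grm2 and 17 for Grm7. The windows of Grm8, which did not pass the test, and of Grm6, which was not tested, are not shown. Grm8 was at 68.4% GC, above Grm3 and Grm7, with 1 GC box, and Grm6 was at 47.6% with 0. Neither holds the TATA box or the cyclic AMP response element. A GC-rich window and these matches were thus not particular to the genes that fell. The matches describe letters in a window and say nothing of which factor binds there.

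In the knockout cortex 4 of the 7 receptor genes fell and 0 rose. They were Grm5 of group I, Grm2 and Grm3 of group II, and Grm7 of group III. The first 3 fell to about the same extent, to between 0.623 and 0.658 of the wild-type mean, and Grm7 fell to 0.364 of it. Grm4 and Grm8 did not pass the test, and Grm6 was too scarce to be tested. Over all 19844 genes tested, 2.53% were lower and 5.21% higher in knockout at an adjusted p under 0.05 (edgeR quasi-likelihood test, Benjamini-Hochberg adjustment over all genes tested). The 6 tested receptor genes had a median log2 fold change of -0.65, beside 0 over all genes tested and -0.58 over the genes that fell. In the same 4 genes all knockout libraries lay below all wild-type libraries, as did 13.5% of all genes tested. With knockout libraries 2 and 3 left out, Grm5 was at -0.74, Grm2 at -0.59, Grm3 at -0.35 and Grm7 at -1.37, and with 1 knockout library remaining 0 of them passed (adjusted p of 0.126 to 0.665). With sex as a covariate all 4 passed when wild-type library 1 was taken as male and 0 when it was taken as female (adjusted p of 0.0622 to 0.187). In RNA from whole tissue, fewer cells of a type and less of a transcript per cell cannot be told apart.

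**Figure D1:**
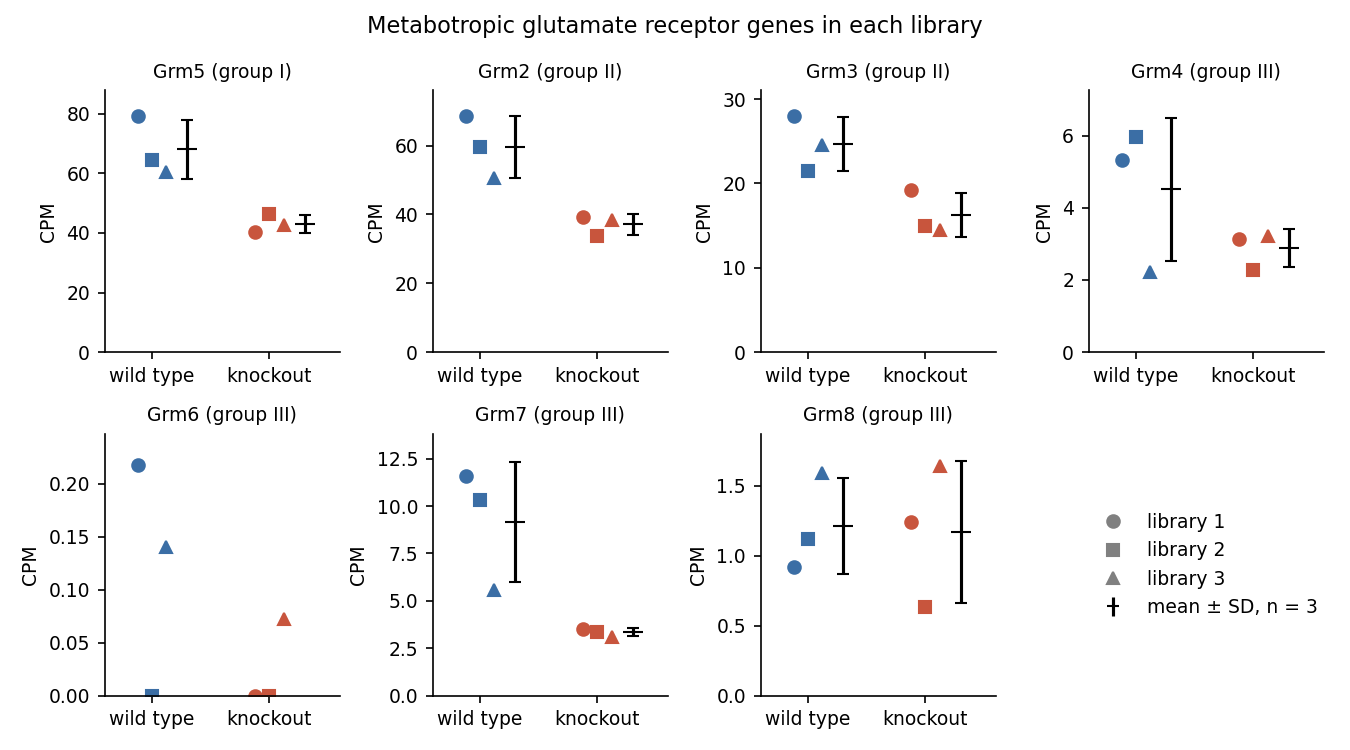
Level of each receptor gene in CPM (vertical axes, linear from 0, scaled separately for each gene) in the 3 wild-type libraries (blue) and the 3 knockout libraries (red), with marker shapes for library numbers and the mean ± SD in black for tested genes. Grm5, Grm2, Grm3 and Grm7 show no overlap between genotypes, whereas for Grm4 wild-type library 3 sits below all knockout libraries.

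Grm5 encodes the group I receptor mGluR5, which signals through Gq and binds Homer scaffold proteins with its intracellular tail. Its level was 79.3, 64.4 and 60.3 CPM in wild-type libraries 1, 2 and 3 and 40.3, 46.3 and 42.6 CPM in knockout libraries 1, 2 and 3. The lowest wild-type library thus stood above the highest knockout library, and the knockout libraries lay closer together than the wild-type ones. From 68 ± 10 CPM it fell to 43.1 ± 3.04 CPM (SD, n = 3), a log2 fold change of -0.66 (SE 0.11, adjusted p = 0.00846). It passed with any single library left out (highest adjusted p = 0.0472).

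Grm2 encodes mGluR2, a Gi/o-coupled receptor of nerve terminals. It was measured at 68.6, 59.5 and 50.7 CPM in wild type against 39.3, 33.6 and 38.5 CPM in knockout. Every knockout library was below every wild-type library. The fall was of 59.6 ± 8.94 to 37.1 ± 3.06 CPM, a log2 fold change of -0.68 (SE 0.12, adjusted p = 0.00917), and this call too held with any single library left out (highest adjusted p = 0.0435).

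Grm3, the gene of the other group II receptor mGluR3, had levels of 28.0, 21.5 and 24.6 CPM in wild type against 19.2, 15.0 and 14.5 CPM in knockout. The groups did not overlap, but knockout library 1 came close to wild-type library 2. Its log2 fold change was -0.60 with an SE of 0.15 (adjusted p = 0.0357), from 24.7 ± 3.22 to 16.3 ± 2.60 CPM. It no longer passed when wild-type library 1 (adjusted p = 0.121), wild-type library 3 (0.0513), knockout library 2 (0.137) or knockout library 3 (0.159) was left out, while the value stayed between -0.74 and -0.52.

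The ratio of Grm2 to Grm3, both of group II, was similar in the genotypes. The log2 CPM of Grm2 exceeded that of Grm3 by 1.27 ± 0.21 in wild type and 1.20 ± 0.19 in knockout (SD, n = 3), a difference of -0.07 (exact two-sided permutation p = 0.7, also 0.7 when adjusted over the 4 pairs compared). Such a test cannot show that both genes fell equally, since 3 libraries against 3 give no p below 0.1.

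Grm7 encodes mGluR7, a presynaptic receptor of low affinity for glutamate that is placed at the active zone, where vesicles fuse. Its level was 11.6, 10.3 and 5.59 CPM in wild-type libraries 1, 2 and 3, against 3.52, 3.38 and 3.10 CPM in knockout. The knockout libraries were nearly level, and wild-type library 3 lay nearer to them than to the other wild-type libraries. These levels rest on 320 to 692 deposited counts per wild-type library and 172 to 242 per knockout library. Grm7 fell by 1.46 on the log2 scale (SE 0.26, adjusted p = 0.00988), and 31 of the 503 genes that fell had a more negative value. It became -1.71 without wild-type library 3, and the call was lost without knockout library 3 (-1.40, adjusted p = 0.0577).

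Grm4, a group III receptor gene best known from cerebellar granule cell terminals, had levels of 5.33, 5.96 and 2.23 CPM in wild type against 3.14, 2.29 and 3.23 CPM in knockout. Wild-type library 3 was the lowest of all 6 libraries, so the groups overlapped. Its log2 fold change of -0.64 (SE 0.35) did not pass (adjusted p = 0.328), although without wild-type library 3 it was -0.97 and passed (adjusted p = 0.0277). Wild-type library 3 was thus the lowest wild-type library for both Grm4 and Grm7. In that library the summed level of 13 pan-neuronal genes was 8020 CPM, against 9030 and 9480 CPM in the other wild-type libraries and 7000 to 7320 CPM in knockout. Map2 (1160, 886 and 515 CPM in wild-type libraries 1, 2 and 3) and Tubb3 (3110, 3420 and 2750 CPM) weigh heavily in these sums. Most of the list was lowest of the wild-type libraries in library 3, but Dcx (1540, 1240 and 1540 CPM), Elavl4, Snap25 and Syt1 were not. The part of neuronal content in the position of this library was not tested.

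Grm8, the gene of a presynaptic receptor of high affinity for glutamate, was scarce, at 0.921, 1.12 and 1.59 CPM in wild type against 1.24, 0.632 and 1.64 CPM in knockout. Libraries of both genotypes were interleaved. The log2 fold change of -0.05 (SE 0.40, adjusted p = 0.962) took either sign when single libraries were left out (-0.37 to 0.25). It rests on 40 to 91 deposited counts per library. With this SE a change of the size seen in Grm2 was neither shown nor excluded.

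Grm6 had 13, 0 and 8 deposited counts in wild type and 0, 0 and 4 in knockout. A count of 0 allows up to 3 fragments, or 12 deposited counts, which is 0.175 to 0.216 CPM in these libraries and covers counting error only. The summed counts of 21 and 4 lie near that floor, so no fold is given. Of 10 genes of the retinal ON bipolar cascade in which the Grm6 receptor works, 5 passed the filter on low counts and 0 of these passed the test. The whole list summed to 5.32 to 7.46 CPM in wild type against 4.22 to 5.70 CPM in knockout.

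**Figure D2:**
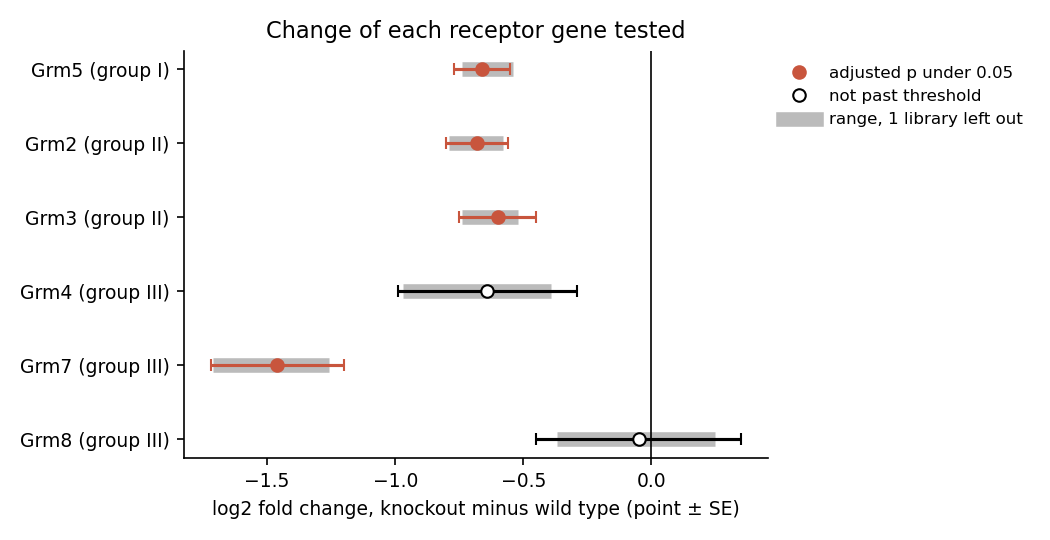
Log2 fold change of the 6 tested receptor genes (horizontal axis, knockout minus wild type, point ± SE), red where the adjusted p was under 0.05, with the grey band giving the lowest and highest value when 1 library was left out. Grm5, Grm2 and Grm3 lie between -0.68 and -0.60, Grm7 at -1.46, and only the band of Grm8 includes 0.

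Within group III the receptors were not shown to change unequally. The log2 CPM of Grm4 lay below that of Grm7 by 1.12, 0.78 and 1.31 in wild-type libraries, whereas in knockout libraries 1, 2 and 3 the difference of Grm4 minus Grm7 was -0.16, -0.55 and 0.06. These ranges do not overlap, and the genotypes differed by 0.85 in this ratio, with the smallest p that 3 against 3 libraries can give (exact two-sided permutation p = 0.1; 0.4 when adjusted over the 4 pairs). For Grm7 minus Grm8 the genotypes differed by -1.27 (exact permutation p = 0.2, adjusted 0.4) and for Grm4 minus Grm8 by -0.42 (exact permutation p = 0.6, adjusted 0.7).

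Levels were compared between receptors per kilobase of merged exon, as CPM per kb. In wild type Grm2 was highest, at 12.2 ± 1.83 CPM per kb, followed by Grm3 at 8.10 ± 1.06 and Grm5 at 6.64 ± 0.979. Grm2 stood above Grm3 in all wild-type libraries, while the ranges of Grm3 and Grm5 overlapped. Grm7 came next at 1.56 ± 0.537 and Grm4 at 0.754 ± 0.334 CPM per kb, with overlapping ranges, and Grm8 (0.122 ± 0.0346) lay below both. Grm6 was the lowest, between 0 and 0.0402 CPM per kb.

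The same order was found in knockout, at lower levels. Grm2 was at 7.58 ± 0.626 CPM per kb, Grm3 at 5.33 ± 0.852 and Grm5 at 4.21 ± 0.297, and here no library of Grm3 was as low as any of Grm5. Grm7, at 0.567 ± 0.0362 CPM per kb, could not be separated from Grm4, at 0.483 ± 0.0868. Summed over the 7 genes, the level was 33.9, 28.4 and 25.8 CPM per kb in wild type and 19.5, 17.3 and 18.0 in knockout. The sum in knockout was 0.623 of that in wild type.

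The make-up of this sum moved little apart from Grm7. Group II receptors made up 69.2% ± 1.94 of it in wild type and 70.5% ± 2.75 in knockout, and Grm5 made up 22.6% ± 0.37 and 23.1% ± 2.97 (SD, n = 3). Grm7 contributed 5.81%, 6.16% and 3.68% in wild type, against 3.07%, 3.32% and 2.92% in knockout. Its lowest wild-type share was above its highest knockout share. All of group III together contributed 8.25% ± 2.18 and 6.40% ± 0.509, with ranges that overlapped.

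**Figure D3:**
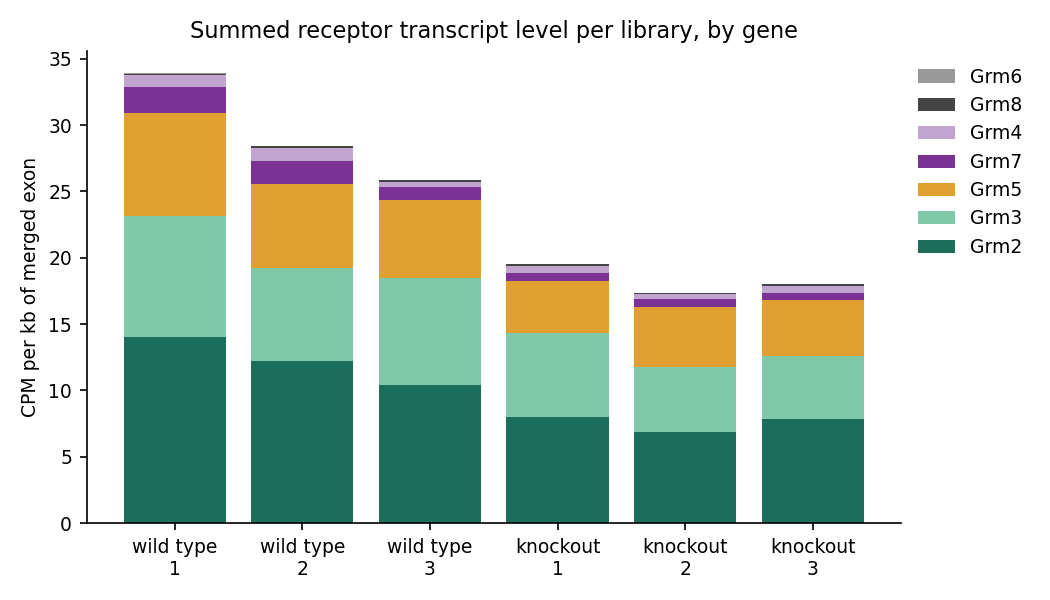
Level of each receptor gene in CPM per kb of merged exon (vertical axis from 0), stacked for each of the 3 wild-type and 3 knockout libraries. The total runs from 25.8 to 33.9 in wild type and from 17.3 to 19.5 in knockout, and the group II genes Grm2 and Grm3 make up the largest part of every bar.

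The genes that act downstream of the receptors are set beside the 2.53% of all tested genes that fell. On the Gq side, which serves Grm5, 1 of 15 genes fell and 0 rose (median log2 fold change -0.11). With single libraries left out, 0 or 1 of them fell. Gnaq, the gene of the Gq alpha subunit itself, stood at 294 ± 17.1 CPM in wild type against 290 ± 1.40 CPM in knockout (-0.02, SE 0.07, adjusted p = 0.887).

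On the Gi/o side, which serves groups II and III, 4 of 19 genes fell and 0 rose (median -0.13). Adcy8, a calcium-stimulated adenylyl cyclase gene, had 542, 506 and 275 counts in wild type and 209, 206 and 164 in knockout (-1.29, SE 0.24, adjusted p = 0.0134). Its wild-type library 3 was low, as it was for Grm7. Kcnj9, a subunit of potassium channels opened by G proteins, fell by 0.91 (SE 0.20), the G protein gamma subunit gene Gng3 by 0.52 (SE 0.09) and the cyclase gene Adcy1 by 0.31 (SE 0.08) on the log2 scale. Only Gng3 of these 4 kept its call with any single library left out (highest adjusted p = 0.0421). The calls of Adcy8 (highest adjusted p = 0.0673), Kcnj9 (0.0934) and Adcy1 (0.193) were lost on leaving out a single library. For each gene this held for 4 or 5 of the 6 libraries. With single libraries left out, 1 to 6 genes of the list fell. Gnao1, which encodes the abundant neuronal Go alpha subunit, was at 717 ± 89.9 and 681 ± 19.3 CPM (-0.07, SE 0.09, adjusted p = 0.705).

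Among 33 tested partners, scaffolds and G protein regulators 2 fell and 0 rose (median -0.13; 0 to 8 fell with single libraries left out). Ncdn, the gene of neurochondrin (norbin), a protein that binds the tail of mGluR5, was among those that fell (-0.45, SE 0.08, adjusted p = 0.00894; 0.0548 without knockout library 3). Homer1, the scaffold of group I receptors, had 99.0 ± 16.6 CPM in wild type against 99.3 ± 1.40 CPM in knockout (0.00, SE 0.11). Pick1, which binds the tail of mGluR7, was at -0.23 (SE 0.08, adjusted p = 0.126). Elfn1 and Elfn2, whose proteins bind group III receptors across the synapse, were at -0.35 (SE 0.17, adjusted p = 0.27) and -0.43 (SE 0.13, adjusted p = 0.093) and did not pass.

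Among genes that supply and clear glutamate, 0 of 16 tested fell and 1 rose (median 0.03). The vesicular transporter genes Slc17a6 (0.14, SE 0.10, adjusted p = 0.462) and Slc17a7 (-0.18, SE 0.09, adjusted p = 0.264), which load glutamate into vesicles, and the glial uptake genes Slc1a2 (-0.45, SE 0.20, adjusted p = 0.238) and Slc1a3 (0.06, SE 0.08, adjusted p = 0.719) did not pass. The gene that rose was Slc7a11, the cystine-glutamate exchanger, from 153, 159 and 98 counts to 1628, 1020 and 1031 (3.06, SE 0.22, adjusted p = 5.58e-05). Slc7a11 is also known from meningeal cells. For the peptide N-acetylaspartylglutamate, an agonist of mGluR3, 0 of 6 tested genes of synthesis and breakdown passed (median -0.02). In the remaining class C receptors, 2 of 10 tested genes rose and 1 fell (median -0.02). The GABA-B receptor gene Gabbr2 fell from 63.1 ± 14.4 to 39.8 ± 3.54 CPM (-0.66, SE 0.16, adjusted p = 0.0456), a value close to those of Grm2 and Grm5, but its call was lost without any 1 library except wild-type 3 (highest adjusted p = 0.155). The orphan receptor gene Gprc5b rose (0.68, SE 0.10, adjusted p = 0.004) and kept its call with any single library left out (highest adjusted p = 0.0312).

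**Figure D4:**
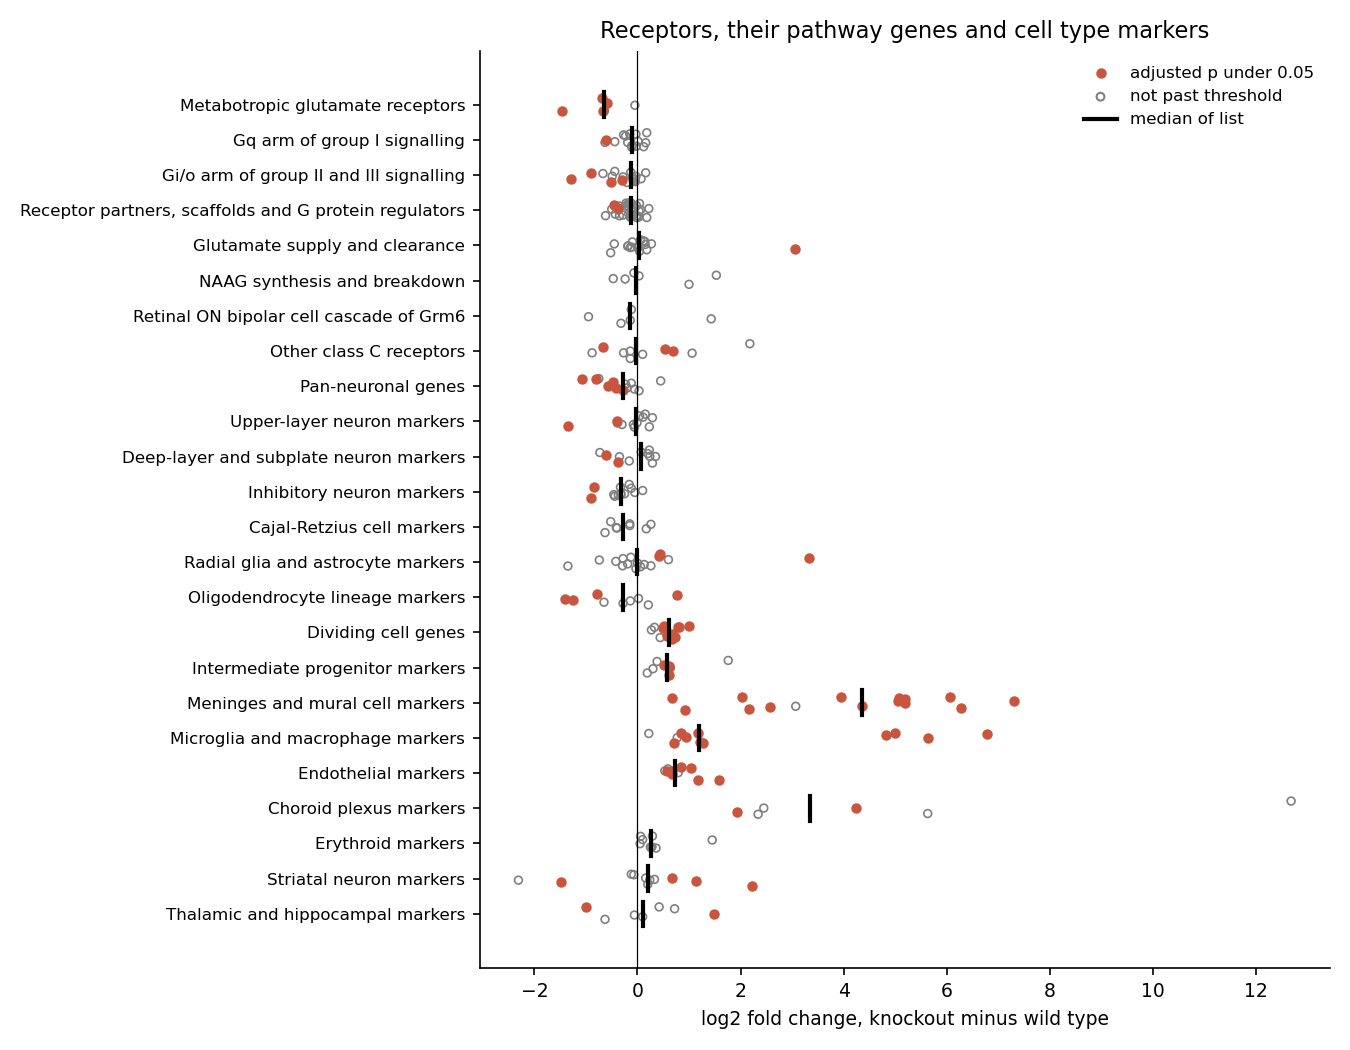
Log2 fold change (horizontal axis, knockout minus wild type) of the tested genes of each list (rows), red where the adjusted p was under 0.05, with the list median as a black bar and points spread vertically for legibility. The receptor median of -0.65 lies below the median of every other list shown, and values of genes near 0 in wild type, at the far right, depend on the small constant added to counts.

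Markers of several cell types moved in the same libraries. Of 13 pan-neuronal genes 6 fell and 0 rose (median -0.29; 3 to 9 fell with single libraries left out), led by Nefl (-1.07, SE 0.16) and Nefm (-0.81, SE 0.12), which encode neurofilaments, the growth cone gene Gap43 (-0.58, SE 0.08) and the synaptotagmin gene Syt1 (-0.47, SE 0.09; lost without knockout library 1 or 2, highest adjusted p = 0.0555). Not all of the list fell: Dcx, a gene of young neurons, was at 0.03 (SE 0.09) and Snap25 at -0.12 (SE 0.07). Elavl4 was at 0.45 (SE 0.15, adjusted p = 0.134) and did not pass, but all its knockout libraries lay above all wild-type libraries. These exceptions were named after their values were seen. When libraries were scaled to the sum of the pan-neuronal list, in place of all genes, the median of all genes moved to 0.30. On that scale Grm7 was at -1.14 (adjusted p = 0.00815), Grm2 at -0.38 (0.0375) and Grm5 at -0.35 (0.0431), all still lower, and Grm3 at -0.31 did not pass (0.166). In that fit 7492 genes had an unadjusted p under 0.05, against 4404 in the main fit. This eases the adjustment, so its adjusted p-values cannot be set beside those of the main fit. The largest part of the pan-neuronal sum was Tubb3, at 3090 CPM in wild type.

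Markers of neuron types differed from list to list. Of 12 upper-layer genes 2 fell, Rasgrf2 (-1.35, SE 0.16) and Cux2 (-0.39, SE 0.07; not passing if a single knockout library is left out, whichever it is, highest adjusted p = 0.0755), and the list sum was 2910 to 3180 CPM in wild type against 2800 to 3230 CPM in knockout. Of 11 deep-layer and subplate genes 2 fell, Crym (-0.61, SE 0.14) and Ldb2 (-0.38, SE 0.09), and 0 rose. That list had a median of 0.07 and sums of 1370 to 1460 CPM in wild type against 1210 to 1460 CPM in knockout. Of 13 inhibitory neuron genes 2 fell, the neuropeptide genes Npy (-0.91, SE 0.11) and Sst (-0.84, SE 0.19). The inhibitory list had a median of -0.32 and sums of 441 to 553 CPM in wild type against 360 to 446 CPM in knockout, a ratio of mean sums of 0.802, close to the 0.812 of the pan-neuronal list. The calls of Crym, Ldb2 and Sst were each lost on leaving out a single library, and this held for at least 4 of the 6 libraries (highest adjusted p = 0.128, 0.128 and 0.105). Of 8 Cajal-Retzius cell genes 0 passed (median -0.28). In the oligodendrocyte lineage 3 of 9 genes fell, Olig1 (-1.40, SE 0.21), Olig2 (-1.26, SE 0.18) and Gpr17 (-0.79, SE 0.17; passing with wild-type library 3 or knockout library 3 left out but with no other, highest adjusted p = 0.0843), and Pdgfra, also known from meningeal cells, rose (0.76, SE 0.11).

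Radial glia and astrocyte markers, from cells in which Grm3 and Grm5 are also known, did not move as a whole in either direction. Of 16 tested, 3 rose and 0 fell (median -0.02), and the list sum was 1590 to 1690 CPM in wild type against 1530 to 1830 CPM in knockout. The genes that rose were Gja1 (3.33, SE 0.26), also known from meninges, Pax6 (0.43, SE 0.08; not passing if wild-type library 1, knockout library 1 or knockout library 3 is left out, highest adjusted p = 0.0774) and Nes (0.41, SE 0.06). Several genes of the list had negative values that did not pass, here named after their values were seen: Gfap (-1.35, SE 0.47, adjusted p = 0.142), Aqp4 (-0.74, SE 0.45, adjusted p = 0.391), Aldh1l1 (-0.42, SE 0.15, adjusted p = 0.129) and Fabp7 (-0.29, SE 0.09, adjusted p = 0.0791). For Aldh1l1 and Fabp7 all knockout libraries lay below all wild-type libraries. Others that did not pass were near 0 or positive, also named after their values were seen. Among them were Aldoc (-0.03, SE 0.07), Slc1a3 (0.06, SE 0.08), Sox9 (0.26, SE 0.11) and Hes1 (0.60, SE 0.16). For Hes1 all knockout libraries lay above all wild-type libraries. Dividing cells had 9 of 12 genes higher (median 0.62), with a list sum of 542 to 676 CPM in wild type against 878 to 905 CPM in knockout. The intermediate progenitors that precede neurons had 3 of 8 higher (median 0.56; 1 to 6 with single libraries left out).

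Marker transcripts of several tissues around and within the cortex that hold other cells were also higher in the knockout libraries. Markers of meninges and mural cells were higher in 14 of 15 tested genes (median 4.35), with sums of 112 to 122 CPM in wild type against 696 to 870 CPM in knockout. Microglia and macrophage markers were higher in 10 of 12 (5 to 10 with single libraries left out), with sums of 36.1 to 41.7 and 122 to 152 CPM, and endothelial markers in 7 of 10, with sums of 255 to 289 and 437 to 542 CPM. Of 6 tested choroid plexus markers 2 were higher, and Folr1 was at 0 in all wild-type libraries. Neither erythroid markers (0 of 8) nor the sums of striatal (124 to 162 and 129 to 182 CPM) and of thalamic and hippocampal markers (114 to 218 and 133 to 191 CPM) separated the genotypes, although single genes of the last 2 lists passed, among them Rarb, Ebf1, Adora2a and Lef1, which rose, and Grik4, which fell. Of these 5 calls, that of Lef1 alone held with any single library left out (highest adjusted p of the others = 0.109). The part that tissue composition has in the falls of the receptor genes was not tested.

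A search for like patterns covered 12137 tested genes whose log2 CPM averaged 1 or more. The receptor genes themselves and genes without a name or with a provisional one were left out. Those with the pattern over the 6 libraries most like that of each called receptor were found by Pearson correlation of log2 CPM. The 6 libraries fall into 2 genotypes, so high values are common and describe these libraries only. For Grm7 the closest were Nell2 (r = 0.9991), Dmtn (0.9980) and the synaptic vesicle gene Sv2b (0.9978), and 366 genes had an r above 0.95. Like Grm7, all 3 were lower in wild-type library 3 than in the other wild-type libraries, Sv2b for example at 35.5, 34.0 and 25.5 CPM in wild type against 19.1, 19.2 and 17.9 CPM in knockout.

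For Grm2 the closest were the netrin-G1 gene Ntng1 (r = 0.9992), Cdh18 (0.9975) and Chgb (0.9968), a gene of secretory granules. Among the closest to Grm5 were Zdhhc23 (0.9927) and Crhr1 (0.9925), the receptor of corticotropin-releasing hormone. Crhr1 was at 11.1, 9.22 and 8.83 CPM in wild type against 5.87, 6.76 and 5.74 CPM in knockout. Grm3 had fewer close matches, with 58 genes above 0.95, led by the contactin gene Cntn5 (0.9970), Itfg1 (0.9920) and Hfm1 (0.9913). The log2 fold changes of Itfg1 (-0.13, SE 0.06, adjusted p = 0.248) and Hfm1 (-0.18, SE 0.13, adjusted p = 0.466) did not pass, so a like pattern did not mean a change of like size.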

How the data were processed

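The authors deposited 1 table of gene counts with 1 column per library, per the file headers, used here as estimated counts that the authors made before deposit by a program not named in these sources. Low values pile up at multiples of 4, and all values were whole. FastQC 0.11.9, Trim Galore 0.4.4, HISAT2 2.0.5, StringTie 1.3.4 and the build mm10 are named per the submitters' processing notes, whereas the annotation release and the use of strand are not stated there. Of 55401 rows, 55141 matched a GENCODE M21 gene by identifier, and the others held at most 0.0238% of the counts of a library.

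Columns were assigned to libraries by sample title. After filterByExpr, 19844 genes remained, which were TMM-scaled and tested with edgeR 4.0.16 in R 4.3.3 (robust quasi-likelihood F-test, genotype as the sole term). All 6 libraries entered, p-values were adjusted over all genes tested, and the threshold was 0.05. Fold changes are knockout minus wild type, and SE is the absolute log2 value over the square root of F. CPM uses TMM-scaled totals, log2 CPM a prior count of 2, and levels per kb the merged GENCODE exons. The script was tested on simulated data. Pairs of receptors were compared by exact permutation over libraries.

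Named from each list were up to 4 genes past the threshold by size, 10 partner genes in any case, and the 3 genes most like each called receptor. Some genes that this rule names are not reported here. Members and lists were chosen with earlier results of these data known. Alternatives were DESeq2 1.42.0, limma 3.58.1 voom, RLE or upper-quartile scaling, other filters, a replicate block, sex as covariate, a fit that was not robust, counts divided by 4, and libraries left out. Scaling to pan-neuronal counts and a second coding of sex were added after seeing the data.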

Additional observations from a re-analysis of the deposited data

How the results depend on the processing

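Grm2, Grm3, Grm5 and Grm7 kept a negative log2 fold change under all 19 alternatives, with ranges of -0.83 to -0.38, -0.74 to -0.31, -0.74 to -0.35 and -1.71 to -1.14. The count of 4 lower receptor genes was 2 to 4 with single libraries left out. It was 0 when knockout libraries 2 and 3 were left out together, a fit that assumes the lone knockout library varies like the wild-type ones (adjusted p of 0.126 to 0.665). It was also 0 with sex as a covariate when wild-type library 1, which holds Xist and Y-linked counts, was taken as female (adjusted p of 0.0622 to 0.187; Grm5 at -0.55, Grm7 at -1.44); all wild-type libraries are then female, and with that library as male the count was 4. In the fit that was not robust Grm3 did not pass (adjusted p = 0.0522). Grm8, at -0.05, ran from -0.37 to 0.25 with single libraries left out and took a positive value without wild-type library 3 (0.20) or knockout library 2 (0.25), without knockout libraries 2 and 3 together (0.04), and on the pan-neuronal scale (0.23). Its most negative value was -0.93 (SE 0.52), with sex as a covariate and wild-type library 1 taken as female, and it did not pass there either. Over all genes, 1033 were higher and 503 lower. With single libraries left out these counts ran from 472 to 1402 and from 137 to 956, without knockout libraries 2 and 3 they were 262 and 43, with the second coding of sex 266 and 73, and on the pan-neuronal scale 4059 and 133. DESeq2 gave 792 lower genes. The replicate block gave 686 higher and 255 lower genes and kept all 4 receptor calls. Same-numbered libraries did not deviate together (correlations of 0.028, -0.003 and 0.002). These values cannot show whether the numbers pair samples by litter or handling, which the labels do not give. With single libraries left out the paired differences ran from -0.18 to 0.03 for Grm2 minus Grm3, changing sign, from 0.71 to 1.02 for Grm4 minus Grm7, from -1.07 to -0.07 for Grm4 minus Grm8 and from -1.80 to -0.89 for Grm7 minus Grm8.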
